A study of Mus musculus with 18 samples.

Results

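The mesothelium is the single layer of flat cells that covers the organs of the body cavities, and its part on the heart is the visceral layer of the pericardium, the epicardium. A set of 8 genes that mark it were followed through RNA of the mouse left ventricle: Msln, Upk3b, Upk1b, Lrrn4, Krt19, Krt18, Krt8 and Wt1. They were chosen by name, with earlier results of these data known, and all 8 were found among the 38355 gene identifiers of the count tables. The 18 libraries came from (DBA/2J x C3HeB/FeJ)F1 mice and formed 4 groups. These were MHC-cycD2 transgenic mice with an aortocaval Shunt (cycD2 Shunt, n = 5), MHC-cycD2 mice with transverse aortic constriction (cycD2 TAC, n = 3, replicates 1, 2 and 4), MHC-cycD2 mice with a sham operation (cycD2 sham, n = 5) and wild type mice without surgery (WT, n = 5). The transgene places cyclin D2, a driver of the cell cycle, behind a myosin heavy chain promoter, which is active in heart muscle cells and not in mesothelium. TAC narrows the aortic arch, a pressure load on the ventricle, and the Shunt joins the aorta to the vena cava, a volume load. Mice were operated on at 8 weeks. A sham version of either procedure is described, and which of them the sham mice underwent is not given in the sources used here. The age at tissue collection and the sex of each animal are not given in the sources used here.

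The adult epicardium is quiet and contributes few cells to a piece of ventricle. In the embryo its cells migrate into the heart wall and give rise to fibroblasts and mural cells, and after injury the adult layer can re-express fetal factors such as Wt1. Mesothelial cells are unusual in being of mesodermal origin and yet keratin-positive, which is why simple epithelial keratins serve as their markers beside the surface proteins mesothelin and the uroplakins. In bulk tissue, fewer cells of a type and less RNA per cell cannot be told apart, so every difference below is one of transcript share in the tissue piece.

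Each library held 19297821 to 30594075 gene counts, and levels are CPM, the count relative to library size after scaling by edgeR's TMM factors. A count of 3 corresponded to 0.0975 to 0.155 CPM, which is the limit that a count of 0 allows, covering counting error only. Of 14876 genes that passed a filter on low counts, 7 were members; Krt8, at 10 counts or fewer in every library, did not pass and is given as levels. Calls required an adjusted p under 0.05 (Benjamini-Hochberg over all tested genes) from edgeR's quasi-likelihood test, fitted over all 18 libraries. Replicates are labelled only as separate samples, and p-values therefore reflect the spread among these samples, which may be technical. Any pair of libraries of 1 group differed by more than counting error (lowest chi-square 7.08 per gene), so none was counted as a repeat.

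Some libraries stood apart before any member was considered. Ccnd2, the gene the transgene adds to, had 17740 to 22210 CPM in Shunt and 21130 to 30480 CPM in sham, against 140.5 to 189 CPM in WT. It had 22050 and 25840 CPM in TAC replicates 1 and 4 but 228 CPM in the library labelled cycD2 TAC replicate 2, near the WT level. Ddx3y, on the Y chromosome, had at most 0.355 CPM in the Shunt libraries and TAC replicates 1 and 2, but 85.3 CPM or more in TAC replicate 4 and every sham and WT library. The clock gene Arntl lay above its counterpart Dbp in all TAC libraries, sham replicates 1 and 2 and WT replicates 1 to 3, and below it elsewhere. Myl7, an atrial myosin light chain, reached 84.9 to 319 CPM in Shunt replicates 2 and 4, TAC replicates 2 and 4 and sham replicates 2 and 5, whereas the remaining 12 libraries had at most 11.5 CPM.

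In their own right the 8 genes were scarce, and they were not equally scarce. Per kilobase of exon, the WT means were 1.47 CPM per kb for Upk3b and 1.25 for Wt1, then 0.648 for Msln, 0.557 for Krt18, 0.434 for Lrrn4, 0.406 for Krt19, 0.241 for Upk1b and 0.0311 for Krt8. The SD of Upk3b over the 5 WT libraries was 1.74 CPM per kb, wider than any gap in that order, while Wt1 had an SD of 0.251. In sham the order changed: Wt1 led with 0.888 ± 0.106 CPM per kb (SD, n = 5), Krt18 followed with 0.269 ± 0.145, and Upk3b had 0.126 ± 0.191. Wt1 led in Shunt as well, at 1.36 ± 0.563 CPM per kb (SD, n = 5), and in TAC it was behind Krt18, with 1.65 ± 0.574 against 3.00 ± 3.04 (SD, n = 3), values whose spreads overlap.

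The windows around 4 annotated transcription starts, 250 bases before to 50 after, were available from RefSeq for Upk3b, Lrrn4, Krt8 and Krt18. They are shown because no window was available for the other members. Upk3b and Lrrn4 went up and down together from library to library. For Krt8, which did not pass the low-count filter, no such likeness to Krt18 was computed. The windows lie in GRCm38.p6 at chr5:136038246-136038545 on the plus strand for Upk3b, chr2:132880813-132881112 on the minus strand for Lrrn4, chr15:102004293-102004592 on the minus strand for Krt8 and chr15:102027966-102028265 on the plus strand for Krt18. Capitals mark matches to 3 motifs searched on both strands: the TATA box TATAAA, the GC box GGGCGG and the MCAT element CATTCC, the sequence bound by TEAD factors. Each is printed 5′ to 3′ on the strand of its gene.
Upk3b: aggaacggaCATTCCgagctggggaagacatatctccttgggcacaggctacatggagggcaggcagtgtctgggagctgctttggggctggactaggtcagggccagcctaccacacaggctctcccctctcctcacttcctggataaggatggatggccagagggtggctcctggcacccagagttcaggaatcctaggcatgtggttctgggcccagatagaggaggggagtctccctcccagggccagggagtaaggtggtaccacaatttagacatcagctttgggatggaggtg
Lrrn4: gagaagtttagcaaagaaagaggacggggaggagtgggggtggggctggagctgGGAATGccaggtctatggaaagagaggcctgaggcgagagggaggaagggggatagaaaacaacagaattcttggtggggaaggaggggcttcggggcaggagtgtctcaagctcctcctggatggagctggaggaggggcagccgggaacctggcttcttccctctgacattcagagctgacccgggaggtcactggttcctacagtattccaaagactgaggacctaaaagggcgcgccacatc
Krt8: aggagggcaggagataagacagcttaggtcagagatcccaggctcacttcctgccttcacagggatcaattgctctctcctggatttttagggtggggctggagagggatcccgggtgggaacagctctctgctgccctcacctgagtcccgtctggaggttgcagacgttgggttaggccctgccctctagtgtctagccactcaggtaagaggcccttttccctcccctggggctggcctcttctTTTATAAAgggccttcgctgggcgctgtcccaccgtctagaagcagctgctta
Krt18: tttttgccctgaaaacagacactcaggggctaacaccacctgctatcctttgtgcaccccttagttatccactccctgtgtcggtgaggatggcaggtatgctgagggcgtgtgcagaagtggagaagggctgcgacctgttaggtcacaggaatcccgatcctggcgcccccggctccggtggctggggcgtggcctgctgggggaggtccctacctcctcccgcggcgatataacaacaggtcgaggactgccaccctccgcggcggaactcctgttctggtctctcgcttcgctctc
Upk3b held CATTCC on its own strand at position -241 from the annotated start, and Lrrn4 held it on the opposite strand at -196. Of 32851 such windows, 14.7% held CATTCC, 13.6% TATAAA and 35.7% GGGCGG. Krt8 held TATAAA on both strands in overlapping matches at -3 and -1, and the Krt18 window had no match to any of the 3. A match describes the letters only and is not a binding site.

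Msln encodes mesothelin, a GPI-anchored surface protein of mesothelial cells (ENSMUSG00000063011, GRCm38 chromosome 17, 25748613 to 25754378, minus strand). Its levels were 0.192, 2.04, 0.0671, 0.0745 and 0.683 CPM in Shunt replicates 1 to 5 and 0.120, 0.434 and 0.515 CPM in TAC replicates 1, 2 and 4. They were 0.0436, 0.0754, 0.046, 0.183 and 0.664 CPM in sham replicates 1 to 5 and 0.798, 6.55, 1.87, 0.588 and 0.134 CPM in WT replicates 1 to 5. WT replicate 2 stood above every other library, and WT replicate 5 was lower than 3 of the Shunt, 2 of the TAC and 2 of the sham libraries, so all groups overlapped.

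Upk3b and Upk1b encode uroplakins, membrane proteins best known from the bladder lining and also made by mesothelium. Upk3b (ENSMUSG00000042985, chromosome 5, 136038496 to 136046487, plus strand) had 0.5, 4.86, 0, 0.0373 and 0.910 CPM in Shunt replicates 1 to 5 and 0.160, 1.03 and 1.07 CPM in TAC replicates 1, 2 and 4. It had 0.262, 0.226, 0.046, 0.0456 and 1.64 CPM in sham replicates 1 to 5, against 1.94, 15.6, 5.80, 2.17 and 0.446 CPM in WT replicates 1 to 5. Again WT replicate 2 was far above the rest, and sham replicate 5 was the only sham library inside the WT range, which Shunt replicates 1, 2 and 5 and TAC replicates 2 and 4 also reached. Upk1b (ENSMUSG00000049436, chromosome 16, 38773184 to 38800328, minus strand) was scarcer still. It had 0.192, 0.653, 0.0335, 0.0373 and 0.163 CPM in Shunt replicates 1 to 5 and 0.120, 0.0789 and 0.0429 CPM in TAC replicates 1, 2 and 4. In sham it had 0 CPM in replicates 1, 3 and 4, 0.0754 in replicate 2 and 0.0885 in replicate 5, and in WT 0.0997, 1.44, 0.885, 0 and 0.0892 CPM in replicates 1 to 5. The sham values rest on 4 counts in all, against 50 counts in WT, 28 of them in replicate 2.

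Lrrn4 encodes a leucine-rich repeat membrane protein that is used as a mesothelial marker in the mouse (ENSMUSG00000043110, chromosome 2, 132868305 to 132880891, minus strand). It had 0.115, 1.8, 0.134, 0.149 and 0.455 CPM in Shunt replicates 1 to 5 and 0.0798, 0.276 and 0.301 CPM in TAC replicates 1, 2 and 4. It had 0.0872, 0.0377, 0.230, 0 and 0.575 CPM in sham replicates 1 to 5, against 0.499, 5.10, 1.97, 0.452 and 0.0446 CPM in WT replicates 1 to 5. The same 3 libraries, Shunt replicate 2, sham replicate 5 and WT replicate 2, were the highest of their groups.

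Krt19, a type I keratin of simple epithelia (ENSMUSG00000020911, chromosome 11, 100140810 to 100148665, minus strand), spanned a narrower range. It had 0.654, 0.694, 0.0671, 0.186 and 0.585 CPM in Shunt replicates 1 to 5 and 0, 0.276 and 0.429 CPM in TAC replicates 1, 2 and 4. It had 0.0436, 0.113, 0.092, 0.0456 and 0.487 CPM in sham replicates 1 to 5, against 0.548, 1.70, 0.835, 0.497 and 0.178 CPM in WT replicates 1 to 5. Only sham replicate 5 among the sham libraries lay inside the WT range.

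Krt18 and Krt8 are the partner keratins of simple epithelia, a type I and a type II chain that assemble together, and they lie near each other on chromosome 15 (Krt18, ENSMUSG00000023043, 102028180 to 102032027, plus strand; Krt8, ENSMUSG00000049382, 101996698 to 102004482, minus strand). Krt18 had 0.577, 0.816, 0.168, 0.112 and 0.455 CPM in Shunt replicates 1 to 5 and 1.96, 9.35 and 1.63 CPM in TAC replicates 1, 2 and 4. It had 0.393, 0.641, 0.138, 0.228 and 0.531 CPM in sham replicates 1 to 5, against 1.25, 1.60, 0.393, 0.362 and 0.401 CPM in WT replicates 1 to 5. All 3 TAC libraries lay above all 15 others, the lowest of them, replicate 4, just above WT replicate 2. Krt8 had 0.385, 0.245, 0.201, 0.0373 and 0.228 CPM in Shunt replicates 1 to 5, 0.399, 0.197 and 0.387 CPM in TAC replicates 1, 2 and 4, and 0.131, 0.264, 0.046, 0.137 and 0.266 CPM in sham replicates 1 to 5. In WT it had 0.206 and 0.0983 CPM in replicates 2 and 3 and 0 CPM in replicates 1, 4 and 5.

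The keratin partners thus did not keep a fixed ratio, though at 10 Krt8 counts or fewer per library much of its spread may be counting error. The Krt8 to Krt18 ratio of CPM was 0.667, 0.3, 1.2, 0.333 and 0.5 in Shunt replicates 1 to 5. In TAC it was 0.204 in replicate 1, 0.0211 in replicate 2 and 0.237 in replicate 4, against 0.333, 0.412, 0.333, 0.6 and 0.5 in sham replicates 1 to 5. In WT replicates 1 to 5 it was 0, 0.129, 0.25, 0 and 0, so low ratios were found in WT as well as in TAC. The lowest ratio among libraries with a Krt8 count came from the library labelled cycD2 TAC replicate 2, where Krt18 had 237 counts and Krt8 5. Both genes have processed copies in the genome: Krt8-ps matched Krt8 at 98.6% over 941 bases, and Gm5200 matched Krt18 at 90.5% over 1267 bases. Krt8 also overlaps the opposite-strand transcript Gm36026 by 101 exonic bases, and the libraries do not keep the strand. None of these 3 had a row in the count tables, and the other 6 members had no copy at 90% identity over 100 bases, so the Krt8 and Krt18 counts are the less certain ones.

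Wt1, the zinc finger transcription factor that defines the embryonic epicardium and is also made by some endothelial cells after injury (ENSMUSG00000016458, chromosome 2, 105126529 to 105173616, plus strand), was the most abundant member by group mean CPM and spread less within groups. It had 13.1, 7.92, 4.56, 5.92 and 10.7 CPM in Shunt replicates 1 to 5 and 13.6, 10.5 and 6.48 CPM in TAC replicates 1, 2 and 4. It had 5.58, 6.45, 5.38, 5.48 and 4.60 CPM in sham replicates 1 to 5, against 8.97, 9.49, 7.32, 7.24 and 5.57 CPM in WT replicates 1 to 5. Its highest and lowest libraries within a group differed by 2.88 times in Shunt, 2.09 times in TAC, 1.40 times in sham and 1.70 times in WT. For Msln the same figures were 30.4, 4.30, 15.2 and 49.0 times.

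**Figure D1:**
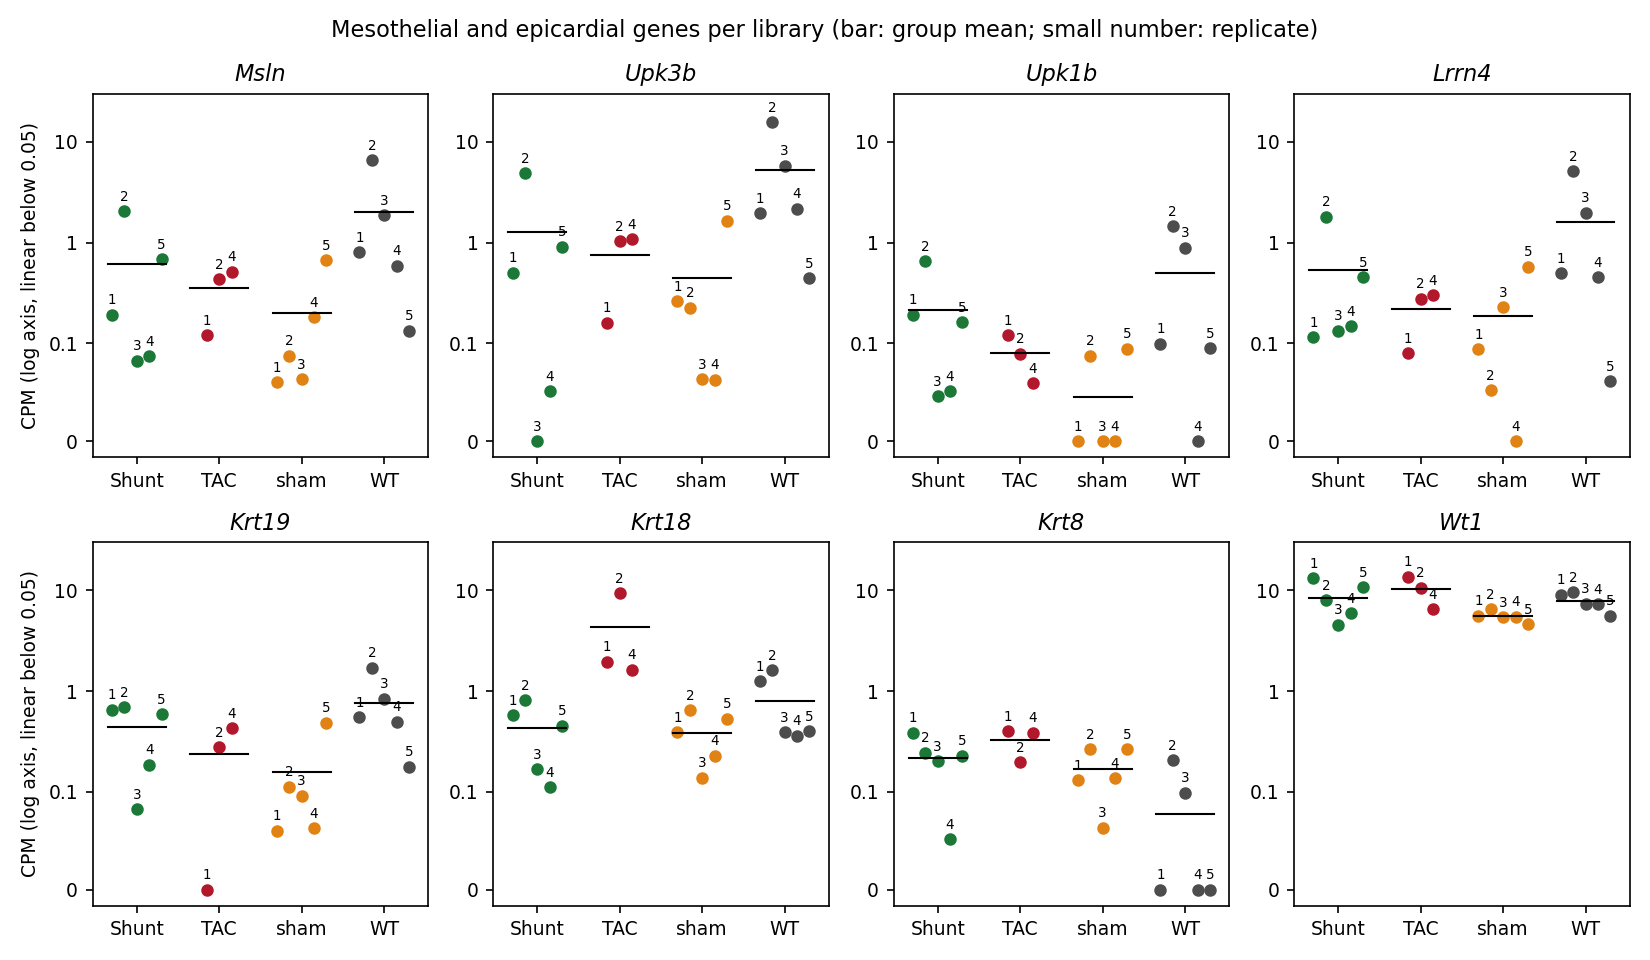
CPM of each of the 8 genes in every library, on a log axis that is linear below 0.05 CPM; points are libraries with their replicate number, colours are the groups Shunt, TAC, sham and WT, and black bars are group means. WT replicate 2, sham replicate 5 and Shunt replicate 2 sit at the top of their groups for Msln, Upk3b, Upk1b and Lrrn4, while the 3 TAC libraries top the Krt18 panel and Wt1 keeps within 4.56 to 13.6 CPM.

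The comparison of cycD2 sham with WT joins the transgene with the operation, which WT did not have. Of the 7 members tested, 5 fell and none rose. In the same comparison 4 of 8 endothelial markers (median log2 fold change -0.25) and 3 of 8 smooth muscle and pericyte markers (-0.29) fell and none rose. Reads in no annotated feature made up 14.9 to 17.9% in sham, against 19 to 22.8% in WT, without overlap. The part of these in the falls was not tested. Msln fell to 0.202 ± 0.264 CPM in sham, against 1.99 ± 2.63 CPM in WT, Upk3b to 0.444 ± 0.675 against 5.20 ± 6.15, Upk1b to 0.0328 ± 0.0451 against 0.503 ± 0.636, Lrrn4 to 0.186 ± 0.235 against 1.61 ± 2.08, and Krt19 to 0.156 ± 0.187 against 0.752 ± 0.580 (SD, n = 5 in each group). Each SD is about as large as its mean or larger, except for Krt19 in WT. Over all genes tested, 14.9% were called lower and 13.5% higher in this comparison, a smaller share than 5 of 7. The members were chosen with earlier results of these data known, and these 5 vary together over libraries. The larger share is therefore a description and not a test. The median log2 fold change of the 7 was -3.09, beside -0.01 over all genes tested.

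In edgeR's quasi-likelihood test the log2 fold change was -3.26 ± 1.08 for Msln (SE, adjusted p = 0.0335). It was -3.53 ± 1.22 for Upk3b (adjusted p = 0.041) and -3.64 ± 1.19 for Upk1b (0.0295). Lrrn4 had -3.09 ± 1.08 (0.0414) and Krt19 -2.21 ± 0.77 (0.0387). Krt18, at 0.386 ± 0.208 CPM in sham and 0.800 ± 0.582 CPM in WT (SD, n = 5 each), did not pass at -1.0 (0.295), and Wt1, at 5.50 ± 0.657 CPM in sham and 7.72 ± 1.56 CPM in WT, did not pass at -0.49 (0.163). With sham and WT fitted alone, Wt1 passed as lower in sham at -0.47 (0.024). None of the members had groups without overlap, whereas 11.7% of all genes tested were lower and 10.6% higher in sham without overlap. Krt8 had 0.169 ± 0.0948 CPM in sham and 0.0609 ± 0.0917 CPM in WT, a difference in the other direction that was not tested.

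These 5 falls rest on a few libraries. WT replicate 2 alone held 65.9% of the summed WT CPM of Msln, 60.1% for Upk3b, 57.4% for Upk1b, 63.3% for Lrrn4 and 45.2% for Krt19, and it was the highest WT library for all 8 members. Without it the log2 fold changes were -2.04 for Msln (adjusted p = 0.154), -2.53 for Upk3b (0.136), -1.97 for Lrrn4 (0.18) and -1.68 for Krt19 (0.129), while Upk1b no longer passed the low-count filter. All 4 stayed negative and none stayed past the threshold. In the opposite sense, sham replicate 5 held 65.6% of the summed sham CPM of Msln and 73.9% of that of Upk3b. Without it the fold changes were larger, at -4.43 for Msln (0.0227), -5.06 for Upk3b (0.0228), -4.22 for Upk1b (0.0401), -4.12 for Lrrn4 (0.0303) and -3.22 for Krt19 (0.0128).

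Leaving out any 1 of the other sham libraries also ended calls. Without sham replicate 1, 3 or 4 none of the 5 genes passed, with adjusted p from 0.0606 to 0.0913 over sham replicates 1 to 4, except Upk1b at 0.0433 without sham replicate 2. Without WT replicate 3 only Msln passed, at -3.28 and an adjusted p that rounds to 0.05, with Upk3b at 0.0639, Lrrn4 at 0.0708, Krt19 at 0.0669 and Upk1b not tested, and without WT replicate 1 Krt19 was at 0.0518. All 5 passed without WT replicate 4 and without WT replicate 5. Under limma-voom none of the 5 passed (adjusted p 0.0646 to 0.132), nor without the low-count filter (0.064 to 0.0974), while DESeq2 called all 5. With the clock difference as covariate only Upk1b passed (-3.18, 0.0201).

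Other mesothelial and epicardial genes gave a mixed picture of the same comparison. Of a list of 20 further markers, 19 were in the tables and 15 were tested. Of these, 3 fell and 2 rose, with a median log2 fold change of -0.31. Over all genes tested 14.9% were called lower and 13.5% higher, so these counts are near that background. Nkain4, a mesothelial membrane protein gene, fell to 0.233 CPM in sham, against 1.04 CPM in WT (-2.12 ± 0.61, adjusted p = 0.0142). Rspo1, an activator of Wnt signalling, fell to 0.285 CPM in sham, against 1.00 CPM in WT (-1.78 ± 0.51, 0.0141), and Gpm6a, a membrane glycoprotein gene, to 3.03 against 6.53 CPM (-1.11 ± 0.35, 0.0245). Bnc1, a transcription factor of mesothelium, had 0.0357 CPM in sham and 0.344 CPM in WT and missed the threshold (-3.08 ± 1.22, 0.0673). Those that rose were Ezr, which links membrane to actin in many cell types (0.74 ± 0.09, 1.46e-05), and Tbx18, a factor of epicardium and mural cells (0.52 ± 0.17, 0.0282). With the mean of this list's tested genes as a covariate, none of the 5 members passed; the log2 fold changes were -1.47 for Msln (adjusted p = 0.177), -1.80 for Upk3b (0.123), -2.06 for Upk1b (0.132), -1.29 for Lrrn4 (0.255) and -1.36 for Krt19 (0.189).

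The libraries were also split by clock phase, where 4 of these 5 genes could be fitted on both sides. Among libraries with Arntl above Dbp (sham replicates 1 and 2, WT replicates 1 to 3) the log2 fold change was -5.53 for Msln (adjusted p = 0.0393), -4.96 for Upk3b (0.048) and -5.24 for Lrrn4 (0.0398), while Upk1b at -4.14 (0.0656) and Krt19 at -3.57 (0.064) did not pass. Among libraries with Dbp above Arntl (sham replicates 3 to 5, WT replicates 4 and 5) it was -0.24 for Msln (0.941), -1.14 for Upk3b (0.742), -0.65 for Krt19 (0.731) and 0.14 for Lrrn4 (0.967). The highest WT library thus fell in the first set and the highest sham library in the second. The difference between both effects did not pass for any member that could be tested: it was -5.27 ± 2.37 for Msln (SE, adjusted p = 0.498), -3.81 ± 2.46 for Upk3b (0.657), -2.90 ± 1.37 for Krt19 (0.493) and -0.19 ± 0.23 for Wt1 (0.836).

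Pressure load gave another pattern. In cycD2 TAC against cycD2 sham 2 of the 7 members rose, Krt18 and Wt1, and none fell, beside 16.4% of all genes tested called higher and 14.5% called lower. The median log2 fold change of the 7 was 0.81, beside 0.01 over all genes tested. Krt18 had 4.31 ± 4.37 CPM in TAC (SD, n = 3), against 0.386 ± 0.208 CPM in sham (SD, n = 5), 10.9-fold higher, with 3.44 ± 0.65 on the log2 scale (SE, adjusted p = 0.000856). Wt1 had 10.2 ± 3.56 CPM in TAC, against 5.50 ± 0.657 CPM in sham, 1.85-fold higher, with 0.89 ± 0.28 on the log2 scale (adjusted p = 0.0225). Both had TAC above sham without overlap, as did 14.5% of all genes tested; 13.6% lay below without overlap.

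Of the summed TAC CPM of Krt18, the library labelled cycD2 TAC replicate 2 held 72.3%; its Ccnd2 was close to WT. Without it TAC averaged 1.79 CPM and the log2 fold change was 2.16 (adjusted p = 0.0161), still past the threshold. Krt18 kept its call without any other single library of either group as well, with adjusted p from 0.000336 to 0.0161. Wt1 lost its call without TAC replicate 1 (0.63, adjusted p = 0.153) and without the library labelled TAC replicate 2 (0.85, 0.0739). With Y-linked transcripts as covariate neither passed (Krt18 2.04, 0.243, and Wt1 0.27, 0.79). Over all genes tested, 287 were called higher with this covariate, beside 2440 without it. Among the libraries with Y-linked counts, TAC replicate 4 against the 5 sham libraries, Krt18 was at 2.03 (0.128) and Wt1 at 0.23 (0.657), where the lone TAC library is assumed to vary like the other groups. With the fit limited to Arntl-high libraries, which keeps all TAC libraries and sham replicates 1 and 2, Krt18 was at 3.04 (0.0906) and Wt1 at 0.76 (0.112). When Arntl minus Dbp entered as a covariate Krt18 passed at 2.71 (0.0144) and Wt1 did not at 0.65 (0.165). Calls of higher over all genes tested fell to 1828 with this clock covariate, and further among the Arntl-high libraries alone.

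The mesothelial surface genes did not follow Krt18 in TAC. Msln was at 0.356 ± 0.209 CPM in TAC (SD, n = 3), against 0.202 ± 0.264 CPM in sham (SD, n = 5), or 0.81 ± 1.43 on the log2 scale (SE, adjusted p = 0.707). Upk3b was at 0.753 ± 0.514 and 0.444 ± 0.675 CPM (0.76 ± 1.53, 0.746), Upk1b at 0.0805 ± 0.0384 and 0.0328 ± 0.0451 CPM (1.13 ± 1.78, 0.669), Lrrn4 at 0.219 ± 0.121 and 0.186 ± 0.235 CPM (0.25 ± 1.53, 0.92) and Krt19 at 0.235 ± 0.218 and 0.156 ± 0.187 CPM (0.56 ± 1.01, 0.711). With SEs of 1.01 or more on the log2 scale, changes of a few fold in these genes were not detectable. Krt8, not tested, had 0.328 ± 0.113 CPM in TAC and 0.169 ± 0.0948 CPM in sham, with overlapping libraries. With the mean of Msln, Upk3b, Upk1b and Lrrn4 as a covariate, Krt18 was at 3.08 (0.00089) and Wt1 at 0.84 (0.0367).

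Of the further mesothelial markers, 3 of 15 rose in TAC and 2 fell, with a median of 0.06. Over all genes tested 16.4% were called higher and 14.5% lower, so these counts are near that background. Aldh1a2, which makes retinoic acid in the embryonic and injured epicardium, rose to 8.44 CPM in TAC, against 2.43 CPM in sham (1.78 ± 0.38, adjusted p = 0.002); the library labelled TAC replicate 2 had 15.4 CPM, against 5.03 and 4.90 CPM in replicates 1 and 4. Pdpn, the membrane protein podoplanin of mesothelium and lymphatic vessels, rose to 10.4 against 4.79 CPM (1.11 ± 0.19, 0.000245), and Tcf21, a factor of epicardium and fibroblasts, to 11.2 against 7.66 CPM (0.55 ± 0.20, 0.042). Efemp1, a matrix glycoprotein gene, fell to 5.90 against 19.5 CPM (-1.72 ± 0.24, 7.65e-05), and Ezr to 85.0 against 130 CPM (-0.62 ± 0.10, 0.000254).

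Fibroblast markers moved in the same comparison: 7 of 9 rose, with a median of 1.39 and a summed level of 4127 to 9232 CPM in TAC, against 2431 to 3912 CPM in sham. Endothelial markers, 5 of 8, rose as well and none fell (median 0.29; summed level 1556 to 1677 CPM in TAC, against 1150 to 1464 CPM in sham), and of 8 smooth muscle and pericyte markers 3 rose and 1 fell (median 0.36). The library labelled TAC replicate 2, highest for Krt18, was also the highest of the 3 for the fibroblast sum. Of 9 intermediate filament and desmosome genes 4 rose and 1 fell; Synm, whose protein joins desmin filaments, rose to 38.95 CPM in TAC, against 18.8 CPM in sham (1.05 ± 0.13), Des, the main filament protein of muscle, to 4590 against 2463 CPM (0.90 ± 0.11) and Pkp2, a desmosome protein, to 289 against 216 CPM (0.42 ± 0.07), and the desmosomal cadherin Dsg2 fell to 49.3 against 102 CPM (-1.05 ± 0.14). The part of these cell types in the rise of Krt18 and Wt1 was not tested. Markers of other keratin-positive epithelia were scarce: none of 8 epithelial genes (Epcam, Cdh1, Cldn4, Cldn7, Krt5, Krt14, Krt20 and Esrp1) passed the low-count filter. Their sum was 0.515 to 0.878 CPM in TAC, 0.402 to 0.962 CPM in Shunt, 0.322 to 0.685 CPM in sham and 0.0983 to 0.446 CPM in WT, and Krt5 had 0 counts in 16 and Esrp1 in 17 of the 18 libraries. Lung markers summed to 0.808 to 1.66 CPM and liver markers to at most 0.692 CPM in any library, with Sftpb and Ttr past the low-count filter. The epithelial sum in TAC was above the TAC means of Msln (0.356 CPM), Lrrn4 (0.219) and Krt19 (0.235). The part of such tissues in the member counts was not tested.

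Under volume load all 7 members stayed short of the threshold. Y-linked transcripts summed to at most 0.154 CPM in each Shunt library, against 201 to 216 CPM in sham. Volume load and sex by these transcripts thus cannot be told apart in this comparison. In cycD2 Shunt against cycD2 sham none was called in either direction, beside 0.108% of all genes tested called higher and 0.134% lower, and none had groups without overlap, beside 1.79% higher and 2.3% lower. Wt1 had 8.44 ± 3.49 CPM in Shunt, against 5.50 ± 0.657 CPM in sham (0.62 ± 0.25, adjusted p = 0.274 in edgeR's quasi-likelihood test). It was the only member with an unadjusted p under 0.05 (0.0239). The median of the 7 log2 fold changes was 1.47, beside 0.00 over all genes tested. Shunt replicate 2 alone held 66.7% of the summed Shunt CPM of Msln, 77.0% for Upk3b, 60.5% for Upk1b and 67.8% for Lrrn4. Msln was at 1.55 ± 1.17 with it and 0.37 without it, Lrrn4 at 1.47 ± 1.17 and 0.25, and Upk3b at 1.47 ± 1.28 and -0.27. Without sham replicate 5 they moved the other way, to 2.72 for Msln, 2.51 for Lrrn4 and 3.00 for Upk3b, with adjusted p of 0.39 or more. Krt19, which was similar in Shunt replicates 1, 2 and 5, was at 1.44 ± 0.80 (adjusted p = 0.416), and Krt18 at 0.09 ± 0.71 (0.969). Of the further mesothelial markers 1 of 15 fell, Efemp1 at -1.16 ± 0.20 (0.0102), and none rose.

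Set against each other, cycD2 Shunt and cycD2 TAC differed in Krt18, which was at 0.426 ± 0.292 CPM in Shunt (SD, n = 5), against 4.31 ± 4.37 CPM in TAC (SD, n = 3). Its log2 fold change was -3.35 ± 0.64 (SE, adjusted p = 0.00117), with no overlap, and -2.08 (0.0207) without the library labelled TAC replicate 2. It was called in the 3 TAC comparisons, which share the TAC libraries. It missed the threshold with the clock difference as a covariate (-2.26, 0.0776), the phases being those of TAC and Shunt themselves, and among the libraries low in Myl7 (-2.28, 0.0686), which leave TAC replicate 1 alone. None of the other 6 passed; over all genes tested 13.6% were called lower and 13.3% higher, and 12.5% were lower and 12.2% higher without overlap. Wt1 was at 8.44 ± 3.49 and 10.2 ± 3.56 CPM (-0.27 ± 0.28, 0.501).

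Comparisons of the loaded ventricles with WT join transgene and surgery. In cycD2 TAC against WT, Krt18 alone was called, with 4.31 ± 4.37 CPM in TAC (SD, n = 3), against 0.800 ± 0.582 CPM in WT (SD, n = 5; 2.45 ± 0.62, adjusted p = 0.00541). That call ended without the library labelled TAC replicate 2 (1.18, 0.13). It also ended with the Y-linked covariate (1.0, 0.531), the atrial covariate (1.33, 0.216), Arntl-high libraries alone (2.02, 0.0989), libraries low in Myl7 alone (1.30, 0.175) and libraries with Y-linked counts alone (1.05, 0.361). The background was 17.1% called higher and 16.9% called lower. Msln (-2.45, 0.126), Upk3b (-2.78, 0.136), Upk1b (-2.52, 0.118), Lrrn4 (-2.84, 0.092) and Krt19 (-1.65, 0.143) had negative values and did not pass; the same WT libraries stand behind these values and those of sham. In cycD2 Shunt against WT none of the 7 was called, beside 15.6% higher and 16.7% lower over all genes tested. Y-linked transcripts summed to 234 to 261 CPM in WT and at most 0.154 CPM in Shunt, so sex by these transcripts is joined to both as well. Without Shunt replicate 2, Msln (-2.89, adjusted p = 0.0349), Upk3b (-3.80, 0.0202) and Lrrn4 (-2.84, 0.0365) passed as lower in Shunt. The group order of mean Upk3b was sham 0.444, TAC 0.753, Shunt 1.26 and WT 5.20 CPM, with each neighbour within the SD of the next, and the same order held for Msln, Upk1b, Lrrn4 and Krt19. The place of Shunt above TAC rested on Shunt replicate 2 for Upk3b, Msln and Lrrn4. Without that library the Shunt mean was 0.362 CPM for Upk3b, and 0.213 CPM for Lrrn4, against 0.219 CPM for Lrrn4 in TAC. The log2 fold change of Shunt against TAC was then -1.02 for Upk3b, -0.44 for Msln and 0.00 for Lrrn4, against 0.71, 0.74 and 1.22 with that library. Under limma-voom Upk3b was at -1.06 and Msln at -0.14, and none of these values passed.

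Within groups, several members varied together and others less so, with no clear border between them. After each group mean was subtracted, Msln and Upk3b varied together over the 18 libraries with Pearson's r = 0.92 (Spearman's rho 0.91), Msln and Lrrn4 with 0.90 (0.77), Upk3b and Krt19 with 0.89 (0.91) and Upk3b and Upk1b with 0.73 (0.76). Without the 2 libraries farthest out these r were 0.88, 0.81, 0.90 and 0.66. Upk1b was less close to Krt19 (r = 0.59, 0.44 without 2 libraries), and without 2 libraries its r was 0.58 with Msln and 0.53 with Lrrn4. Those values are no higher than that of Upk3b with Krt18 (0.66, 0.59 without 2 libraries). Against the mean of Msln, Upk3b, Upk1b and Lrrn4, Krt19 had r = 0.84, Krt18 0.59 and Wt1 0.29. These are descriptions over libraries that differ in tissue piece and depth, and at a few counts much of the scatter is counting error. The Upk3b to Msln ratio of CPM was 2.39 in WT replicate 2, 2.47 in sham replicate 5 and 2.38 in Shunt replicate 2, the top libraries of their groups, and 3.11 in WT replicate 3, which had more Upk3b than the sham and Shunt libraries.

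By the same measure the genes outside the members most like the mean of these 4, with mean log2 CPM no lower than 0, were Npnt (r = 0.87), Gpc3 (0.80), Cnn1 (0.78), Slc39a8 (0.76), Rarres2 (0.75), Tagln (0.74), Inhbb (0.74), Csf2rb (0.73), Nkd1 (0.73) and Ccdc3 (0.73), over 18 libraries. They were picked for the highest r, so high values follow from the choice. Without the 2 libraries farthest out, their r ran from 0.498 for Slc39a8 to 0.805 for Npnt. Npnt, which encodes the matrix protein nephronectin, had 4.04 CPM in Shunt replicate 2, against 0.905 to 2.28 CPM in the other Shunt libraries, 7.66 CPM in sham replicate 5, against 1.15 to 3.13 CPM in the other sham libraries, and 5.93 CPM in WT replicate 2, against 1.07 to 3.78 CPM in the other WT libraries. It did not pass the threshold in sham against WT (0.05, adjusted p = 0.957), as Krt18 and Wt1 did not among the members. Of the 15 further mesothelial markers, those most like that mean were Bnc1 (r = 0.89), Nkain4 (0.78) and Rspo1 (0.78), and Tbx18 ran the other way (-0.59). Without the 2 libraries farthest out these r were 0.785, 0.608, 0.567 and -0.604.

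**Figure D2:**
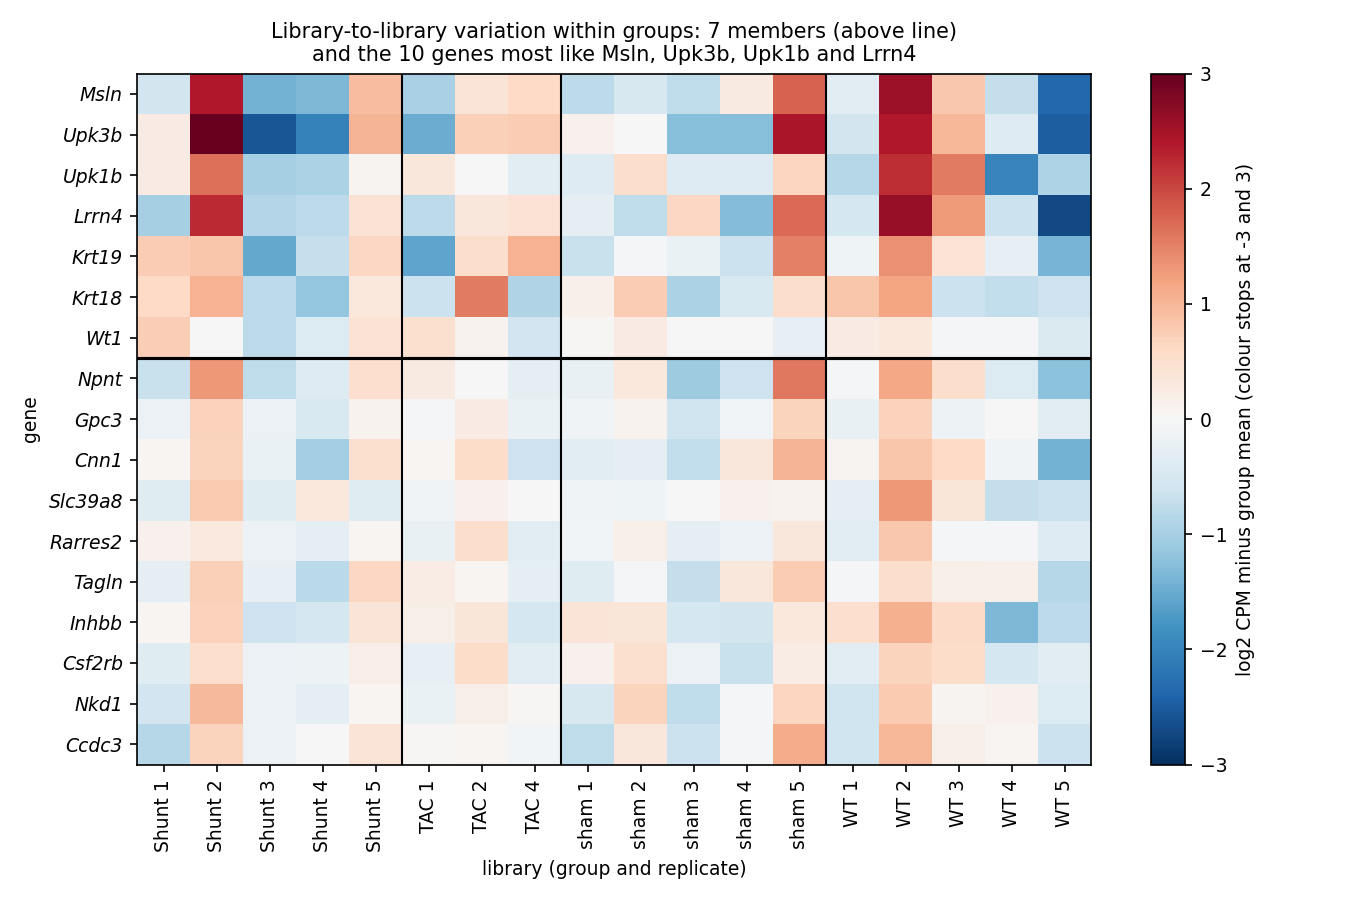
Each cell is a gene's log2 CPM in a library minus its group mean, red above and blue below, for the 7 tested members (above the line) and the 10 genes most like Msln, Upk3b, Upk1b and Lrrn4; columns are libraries by group. Shunt replicate 2, sham replicate 5 and WT replicate 2 are red down the first 5 rows and paler red in most of the lower rows, while the Wt1 row stays pale.

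Transcripts of neighbouring tissues went with the mesothelial set in some libraries and not in others. Shunt replicate 2 and sham replicate 5, the highest of their groups for 6 of 8 members each, also had Myl7 at 84.9 and 319 CPM and the adipocyte gene Cfd at 7.51 and 2.79 CPM. WT replicate 2, the highest of all 18 for Msln, Upk3b, Upk1b, Lrrn4 and Krt19, had Myl7 at 8.09 CPM and Cfd at 0.155 CPM. Shunt replicate 4 was the converse, with Myl7 at 204 CPM, Cfd at 4.06 CPM and Upk3b at 0.0373 CPM, a single count. Sham replicate 2 had Myl7 at 173 CPM and Upk3b at 0.226 CPM.

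Over the whole marker lists, 3 of 7 tested atrial genes rose and 1, Nppa, fell in sham against WT. Without Nppa, which load induces in the ventricle, their sum was 88.4 to 548 CPM in Shunt, 77.7 to 417 CPM in TAC, 109 to 816 CPM in sham and 48.8 to 76.0 CPM in WT. Among the atrial genes listed, Bmp10 had 0 counts in 12 of 18 libraries, whereas Myl7, Myl4 and Sln reached 319, 375 and 37.1 CPM. The 7 adipocyte genes other than Lpl and Adipor2, which heart muscle also expresses, summed to 0.134 to 14.5 CPM in Shunt, 0.0798 to 9.19 CPM in TAC, 0.0872 to 5.40 CPM in sham and 0.147 to 0.567 CPM in WT. None of the 4 of these that were tested was called in sham against WT or in TAC against sham; Lep and Ucp1 had 0 counts in 13 and 12 libraries. Both trimmed sums were chosen after the values were seen. WT thus had the lowest range for atrial transcripts and the highest mean for mesothelial ones, and when the mean level of 3 atrial transcripts (Myl7, Myl4, Sln) entered as covariate all 5 falls in sham against WT passed, at -5.51 for Msln (adjusted p = 0.00191), -6.45 for Upk3b (0.00184), -5.48 for Upk1b (0.00645), -5.25 for Lrrn4 (0.00301) and -3.45 for Krt19 (0.00787). Over all genes tested, 1689 were called lower and 1644 higher in sham against WT with that covariate, beside 2223 and 2004 without it. The trimmed atrial sums did not overlap between sham and WT, so group and covariate are partly joined. The sizes of these falls thus depend on the slope fitted for the covariate. With that covariate Msln, Upk3b, Upk1b and Lrrn4 also passed as lower in TAC and in Shunt than in WT, and Krt19 in TAC, while Krt18 in TAC against WT lost its call (1.33, 0.216). Among libraries with Myl7 at 11.5 CPM or below, sham replicates 1, 3 and 4 against the 5 WT libraries, Upk3b was at -5.34 (0.043) and Krt19 at -3.49 (0.0239), and Msln at -4.34 (0.0707), Upk1b at -6.53 (0.0952) and Lrrn4 at -3.82 (0.0941) did not pass. Upk1b had 0 counts in each of these sham libraries, so the value of -6.53 does not measure the size of its fall.

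**Figure D3:**
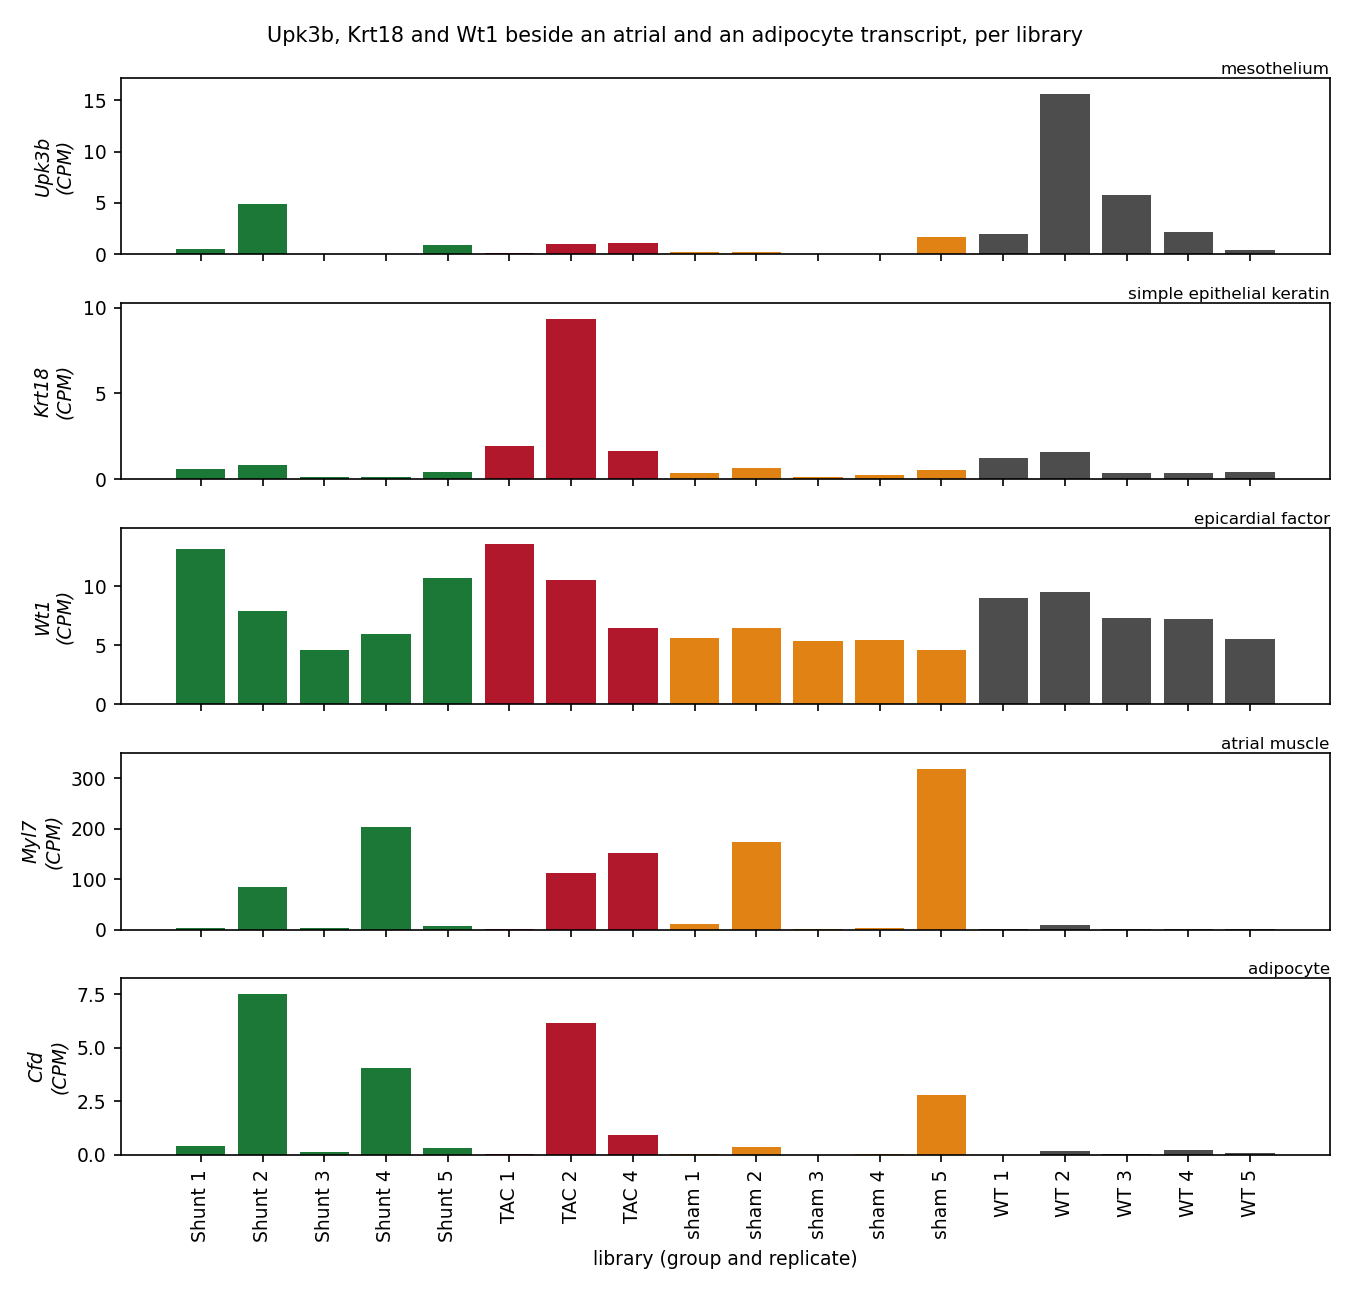
CPM per library, from 0, of Upk3b, Krt18 and Wt1 and of the atrial transcript Myl7 and the adipocyte transcript Cfd; bars are libraries, ordered Shunt, TAC, sham and WT. Upk3b is high in WT replicate 2 (15.6 CPM) with little Myl7 or Cfd, whereas Shunt replicate 4 and sham replicate 2 have Myl7 at 204 and 173 CPM with almost no Upk3b, and the Krt18 peak of 9.35 CPM stands in the library labelled TAC replicate 2.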

How the data were processed

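Left ventricular RNA of 18 libraries was analysed from the deposited gene counts. Per the labels, RNA was purified with an RNeasy fibrous tissue kit and prepared with TruSeq RNA v2 chemistry, in which strand is lost. The authors deposited raw read counts per Ensembl gene, and the submitters' processing notes name STAR 2.3.0e, HTSeq 0.6.1p1, DESeq2 1.8, SAMtools 0.1.19, FastQC, and CASAVA 1.8.2 as tools, and mm10 and GRCm38 as builds. The annotation release and the strand setting are not given in the sources used here. Symbols, positions and exon lengths came from GENCODE M21 (36602 of 38355 identifiers matched); the summary lines, among them reads with no feature, were left out of library sizes.

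Genes were filtered with filterByExpr (minimum count 10) and tested with edgeR 4.0.16 in R 4.3.3 (TMM, quasi-likelihood F test, robust, 1 mean per group over all 18 libraries), which was also tested on simulated data. Each SE is the fold change on the log2 scale divided by the root of its F statistic. Log2 CPM for correlations used a prior count of 2. Alternatives were DESeq2 1.42.0, limma-voom of limma 3.58.1, other scalings and filters, the replicate block, covariates, each pair of groups alone and each library left out; fits within clock phase, within Y-linked status and among libraries low in Myl7 were chosen after seeing the data. Replicate numbers were checked by the correlation of residuals of same-numbered libraries: between TAC and sham the values were 0.129 (replicate 1), 0.151 (replicate 2) and 0.157 (replicate 4). TAC replicates 1 and 2 were most like sham replicates 3 and 5, and TAC replicate 4 was most like sham replicate 4. Between Shunt and TAC the values were 0.17, 0.139 and 0.093, each library being most like its own number. Every remaining comparison held a negative value. Pairing by number was therefore not assumed, and the replicate block served only as an alternative. With the block, Krt18 and Wt1 kept their calls in TAC against sham (3.02, adjusted p = 5.93e-05, and 0.72, 0.0374).

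The members and the lists were chosen with earlier results of these data known. Every member is named in every comparison. Of the other lists, counts are given with up to 4 called members of smallest p; Bnc1, Tbx18, Tcf21, Cfd and the libraries of Npnt and Aldh1a2 were chosen after their values were seen. Of the further markers, Muc16 was not matched to an identifier and is not analysed here.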

Additional observations from a re-analysis of the deposited data

Results flagged for a closer look

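A single library stood far from the other 4 of its group in 7 of 24 sets of 5 libraries (8 genes in Shunt, sham and WT), where chance would flag about 1 in 20 if values were normally distributed, which was not tested for these low counts; the genes vary together, so these are not 7 separate events. In Shunt, replicate 2 had 4.86 CPM of Upk3b, against 0.910 CPM or less in the others, 0.653 CPM of Upk1b, against 0.192 or less, and 1.8 CPM of Lrrn4, against 0.455 or less. In sham, replicate 5 had 0.664 CPM of Msln, against 0.183 CPM or less, 1.64 CPM of Upk3b, against 0.262 or less, and 0.487 CPM of Krt19, against 0.113 or less. In WT, replicate 2 had 6.55 CPM of Msln, against 1.87 CPM or less. The 3 TAC libraries are too few for this measure, which therefore does not cover Krt18 in the library labelled TAC replicate 2 (9.35 CPM).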

How the results depend on the processing

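Other scalings, DESeq2 and each pair of groups fitted alone ended none of the calls of members that they tested; Wt1 in sham against WT gained a call with these groups alone (0.024). Among libraries with Y-linked counts, Msln (0.0507) and Lrrn4 (0.0744) missed the threshold in sham against WT. For sham against WT, members called lower numbered 5 as reported, 0 under limma-voom and with no low-count filter, 3 under the stricter filter (which left Upk1b and Krt19 untested), 2 with the replicate block, 1 with the clock covariate, 0 with other mesothelial genes as covariate, 3 and 0 within libraries with Arntl above Dbp and with Dbp above Arntl, 2 among libraries low in Myl7, and 0 to 5 with each library left out. Lrrn4 changed sign to 0.14 with Dbp above Arntl alone. Over all genes tested in sham against WT, calls of lower went from 2223 as reported to 2181 under limma-voom and 1731 with no low-count filter. They were 2018 under the stricter filter, 2219 with the replicate block, 2365 with the clock covariate and 1620 with other mesothelial genes as covariate. Among libraries low in Myl7 they were 1522, and with each library of these groups left out they were 1771 to 2027. Within the clock phases they were 652 with Arntl above Dbp and 860 with Dbp above Arntl. For TAC against sham, members called higher numbered 2 as reported, 0 with the Y-linked covariate, 1 with the clock covariate, 0 with Arntl above Dbp alone, 0 with Y-linked counts present alone and 1 to 2 with each library left out. Calls of higher in TAC against sham over all genes tested went from 2440 as reported to 287 with the Y-linked covariate. They were 1828 with the clock covariate, and fewer than that with Arntl above Dbp alone. For Shunt against TAC, 1 was called higher (Upk1b at 4.42, adjusted p = 0.0261) and 0 lower with the clock covariate. Over all genes tested, that covariate left 1074 higher and 1053 lower, beside 1985 and 2030 as reported. For TAC against WT, members called higher numbered 1 as reported, 2 with no low-count filter (Krt8 being added) and 0 with the Y-linked covariate, the atrial covariate, Arntl above Dbp alone, low Myl7 alone and Y-linked counts present alone, and 0 to 1 with each library left out. Members called lower there numbered 0 as reported, 2 with the clock covariate, 5 with the atrial covariate, 4 with Arntl above Dbp alone and 0 to 1 with each library left out. Over all genes tested, calls of lower in TAC against WT were 2516 as reported. They were 2435 with the clock covariate, 1808 with the atrial covariate and 1919 with Arntl above Dbp alone. Calls of higher went from 2538 as reported to 908 with the Y-linked covariate and 1791 with the atrial covariate. For Shunt against WT, 4 were called lower with the atrial covariate and 0 to 3 with each library left out. Over all genes tested, calls of lower there were 2076 with the atrial covariate, beside 2488 as reported. The cause of these changes was not tested. Some of these fits also used smaller sets of libraries or genes. Depth limits the libraries at or near the level of 3 counts (0.0975 to 0.155 CPM). For Upk1b and Krt8 these are many, and for Msln and Lrrn4 they include WT replicate 5. In sham replicates 1 to 4, Msln had 1, 2, 1 and 4 counts. Krt19 had 1, 3, 2 and 1 counts there, and Lrrn4 2, 1, 5 and 0. Upk3b had 1 count each in sham replicates 3 and 4, so depth also limits the sizes of the falls in sham. Wt1, and Krt18 in TAC, are well above the level of 3 counts. WT had no operation, so genotype and surgery cannot be told apart. Y-linked counts set all Shunt libraries apart from all sham and WT libraries, so volume load and sex by these counts cannot be told apart. Clock phase, and Y-linked counts in TAC, follow the groups in part.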
